A study of Mus musculus with 8 samples.

Results

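Genes that had no counts in any library of a genotype and counts in most libraries of the other were examined in RNA-seq of hippocampal CA1 tissue, with 4 libraries from wild-type (WT) and 4 from Brpf1 conditional knockout (cKO) mice. A gene was taken where its value was 0 in all 4 libraries of a group and above 0 in at least 3 of the 4 libraries of the other. Genes without a symbol, Hox, Fox, histone cluster and collagen genes, genes described as opposite strand transcripts, and Tlx1 and Pax1 were left out. This gave 247 of the 34094 genes in the table, 75 at 0 in WT and 172 at 0 in cKO. Among the 32542 genes with a symbol these are 0.23% and 0.529%. The named exclusions removed 9 further genes at 0 in WT and 2 at 0 in cKO. The members were chosen by their measured values, so which group was at 0 is a description and carries no test.

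BRPF1 is a scaffold protein of MOZ and MORF histone acetyltransferase complexes. All mice were of strain C57BL/6 and 2 months old. The 4 WT libraries carry the genotype WT, and the 4 cKO libraries are titled cko type with the genotype given as Brpf1 knockdown. Neither the Cre driver nor the deleted exons are stated in the labels. Brpf1 itself, in normalized counts (counts divided by the size factor of the library), was 1415 ± 55.1 in WT (SD, n = 4) and 945 ± 87.3 in cKO (n = 4), or 66.8% of the WT level. That difference gave a two-sided exact permutation p of 0.0286, the smallest that 4 against 4 libraries allow. The labels tie no library to an animal, and a protocol speaks of fewer mouse pairs than there are libraries per group, so spread between libraries may be partly technical. In bulk tissue, fewer cells of a type and less RNA per cell cannot be told apart.

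Total counts were 42346644 to 49897832 per WT library and 40330226 to 46559795 per cKO library. The 8 CA1 pyramidal neuron markers were present in every library, with summed normalized counts of 17985 to 27712. A list of 5 dentate granule cell markers was present in every library too, at 8480 to 13492. The share of dentate tissue was not tested. The library WT replicate 1 stood apart in 20 genes of kidney epithelium, which summed to 17016 normalized counts there, to 272, 304 and 350 in the other WT libraries, and to 320, 300, 335 and 1014 in cKO replicates 1 to 4. This kidney list was drawn up after the values were seen. A list of 10 choroid plexus genes also varied widely, from 5661 normalized counts in WT replicate 1 to 170007 in WT replicate 2 and from 11002 to 48842 in cKO. Its part in the counts of members was not tested. WT replicate 1 also held 63.5 normalized counts of 4 Y-linked genes, against 0 to 0.864 in the other WT libraries and 0 to 9.04 in cKO. Xist, the transcript of the inactive X chromosome, was at 61454 to 71044 normalized counts in WT and 40726 to 55721 in cKO, without overlap.

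As background, a gene with a handful of counts in a library of this depth may be counted in some libraries and missed in others by sampling. Pseudogenes, long noncoding RNAs and predicted genes populate this range in most tissues, and a protein-coding gene can sit there when it belongs to a cell type that is rare in, or foreign to, the tissue. Libraries made for mRNA are not designed to capture mature microRNAs, which lack a poly(A) tail and are short. Counts assigned to a microRNA gene in such a library can come from a longer primary transcript or from the host gene in which the hairpin lies.

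By symbol, 12 members were microRNA genes, 4 at 0 in WT (Mir142b, Mir6338, Mir7074 and Mirlet7e) and 8 at 0 in cKO (Mir1946b, Mir208b, Mir3473e, Mir1963, Mir1193, Mir1199, Mir6980 and Mirlet7c-1). Of these, 11 were matched in RefSeq's table for GRCm38.p6, with 17 mature sequences and 16 distinct seeds. The lookup of microRNA sequences left out a chromosome. Among the matched genes, the only seed found in both directions was that of the let-7 family, a repressor of many growth and developmental genes. The mature sequences below are shown because of that shared seed and, for the others, because their genes had the most counts among the microRNA genes of each direction. They are RNA, written 5′ to 3′, with the seed (bases 2 to 8) in capitals.
let-7e-5p, Mirlet7e, at 0 in WT: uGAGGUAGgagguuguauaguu
let-7c-5p, Mirlet7c-1, at 0 in cKO: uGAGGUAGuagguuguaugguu
miR-142b, Mir142b, at 0 in WT: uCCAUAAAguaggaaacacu
miR-1946b, Mir1946b, at 0 in cKO: gCCGGGCAgugguggcacaugcuuuu
miR-208b-3p, Mir208b, at 0 in cKO: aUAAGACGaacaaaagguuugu

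Counted from the 5′ end, let-7e-5p differs from let-7c-5p by U9G and G19A, both outside the seed. Mirlet7e had 1, 0, 1 and 1 counts in cKO replicates 1 to 4, and Mirlet7c-1 had 1, 1, 0 and 1 in WT replicates 1 to 4. Mir142b had 1, 2, 0 and 1 counts in cKO. Mir1946b had 1, 1, 3 and 3 counts in WT and Mir208b had 0, 1, 1 and 4. With sums of 3 to 8 counts per gene, and at most 5 for 10 of the 12, these values lie at the floor of what the depth can show. A group at 0 allows up to 3 counts over its 4 libraries, counting error only, if each count is an independent read.

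The hairpins of 8 of the 12 lay within the span of another gene on the same strand in the GENCODE annotation, release M21. Mir208b lies in Myh7, a slow cardiac and skeletal muscle myosin heavy chain, which had 251, 440, 338 and 387 counts in WT and 699, 628, 518 and 684 in cKO. Mir208b was thus at 0 in the group in which all 4 libraries held more Myh7 counts. Mir1963 lies in Ryr1, a calcium release channel, with 2544, 2150, 2410 and 2367 counts in WT and 1524, 1983, 1066 and 1402 in cKO. Mir1963 had 1 count in each WT library, so here the gene and its host were lower in the same group. Mirlet7c-1 lies in Mir99ahg, its long noncoding host transcript, with 310, 453, 310 and 323 counts in WT and 150, 237, 128 and 282 in cKO. Mirlet7e lies in the annotated span of Spaca6, a sperm membrane protein gene, whose counts overlapped between the groups (1979 to 2464 in WT and 1099 to 2128 in cKO). The remaining hosts overlapped between the groups as well. Slc12a4, host of Mir7074, had 608 to 982 counts in WT and 592 to 710 in cKO. Rbks, host of Mir3473e, had 63 to 84 and 58 to 100. Arap3, host of Mir6980, had 338 to 402 and 325 to 373. The gene 2210011C24Rik, host of Mir1199, had 12 to 42 and 5 to 21. These hosts were looked up because their microRNA genes were members, and their differences were not tested.

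The 2 directions differed in number. For genes at 0 in a whole group, 1557 had counts in exactly 1 cKO library, 307 in 2, 67 in 3 and 8 in all 4 when WT was at 0. With cKO at 0, the numbers over WT libraries were 2012, 522, 146 and 26. The number at 0 in cKO per gene at 0 in WT was 1.29 for genes with counts in 1 library, 1.70 for 2, 2.18 for 3 and 3.25 for 4. The excess of genes at 0 in cKO was therefore present outside the rule's threshold as well. As a ratio it grew with the number of libraries required, while the numbers of genes fell, to 8 and 26 at the last step. Over all 4 steps together, 1939 genes were at 0 in WT and 2706 at 0 in cKO, a ratio of 1.40, against 2.29 for the members.

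**Figure D1:**
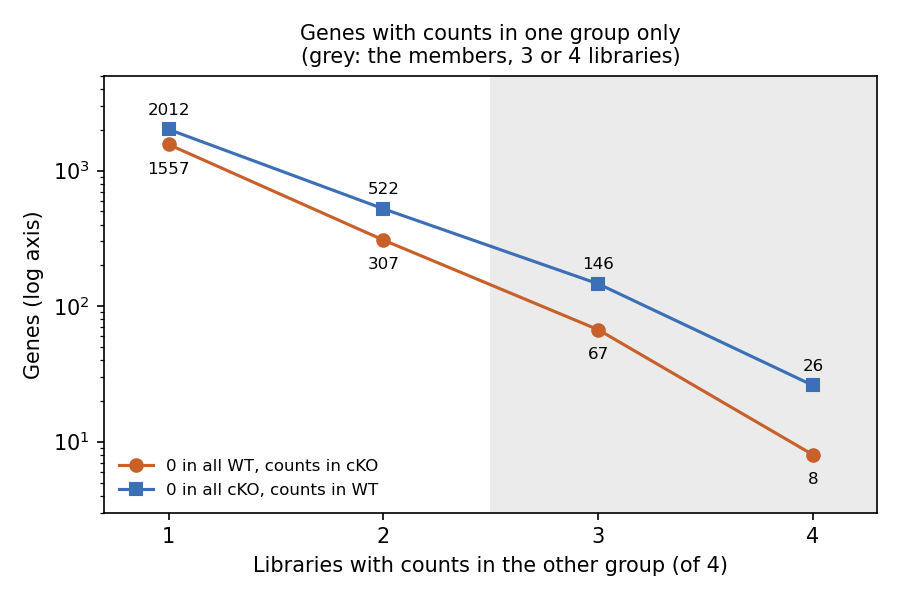
Number of genes at 0 in every library of a group (vertical log axis) by the number of libraries of the other group with counts (horizontal axis). Circles are genes at 0 in WT and squares genes at 0 in cKO; the squares lie above the circles at each step, from 2012 against 1557 genes at 1 library to 26 against 8 at 4 libraries.

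The number of genes detected at all was then compared between libraries, as a measure that does not rest on the members. With members left out and every library reduced by expectation to 40330226 counts, 26417, 26561, 26368 and 27086 genes were detected in WT replicates 1 to 4 and 26212, 26406, 25418 and 25792 in cKO replicates 1 to 4. The means were 26608 ± 329 and 25957 ± 441 (SD, n = 4 each), a difference of -651 genes (-2.45%). The groups overlapped, since cKO replicate 2 lay above WT replicate 3, and the two-sided exact permutation p was 0.0571. By gene class, over 5 classes, pseudogenes gave 3074 ± 58.6 in WT and 2897 ± 89.2 in cKO (-5.74%, exact permutation p = 0.0286, adjusted p = 0.143). Protein-coding genes gave 16722 and 16586 (-0.811%, exact permutation p = 0.171, adjusted p = 0.214). No class passed after Benjamini-Hochberg adjustment. The part of this difference in the unequal numbers of members was not tested.

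**Figure D2:**
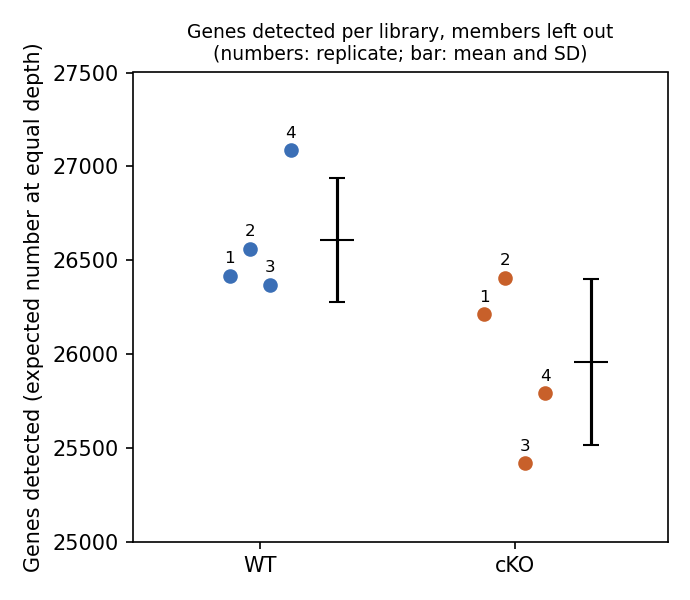
Genes detected per library at equal depth, members left out (vertical axis, which does not start at 0), for the 4 WT and 4 cKO libraries. Points are libraries with their replicate numbers, and bars give mean and SD (26608 ± 329 and 25957 ± 441); WT replicate 4 is the highest point and cKO replicate 3 the lowest.

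WT replicate 4 and cKO replicate 3 were the ends of that range, and the counts of members were repeated without each library. When 1 WT and 1 cKO library were left out together and counts were required in all 3 libraries left, a setting chosen after seeing the data, 33 to 59 genes were at 0 in WT and 82 to 139 at 0 in cKO. All 16 such pairs gave more genes at 0 in cKO, with ratios of 1.41 to 4.03. The lowest ratio came from leaving out WT replicate 4 with cKO replicate 3. The 4 pairs without WT replicate 1, the library with kidney transcripts, gave 40 to 56 genes at 0 in WT and up to 131 at 0 in cKO, with ratios of 2.02 to 3.15.

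Per gene, the 2 directions held similar numbers of counts. The median sum over the libraries was 12 for the genes at 0 in WT (quartiles 7 and 16, range 3 to 87) and 12.5 for those at 0 in cKO (quartiles 8 and 18, range 3 to 291). For comparison, 2304 genes with counts in both groups and in 3 or 4 of the 8 libraries had a median of 13. At least 10 counts were reached by 44 of 75 (58.7%) and 109 of 172 (63.4%) members, at least 50 counts by 5 and 6. Counts in all 4 libraries were present for 8 and 26 members, whose groups therefore did not overlap. Over all genes in the table, every cKO library lay above every WT library for 1.99% and below for 1.82%.

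In sum, the genes at 0 in WT held 1124 counts, and those at 0 in cKO 3145. The 75 genes at 0 in WT had 235, 326, 260 and 303 counts in cKO replicates 1 to 4, an even spread. The 172 genes at 0 in cKO had 1183, 516, 606 and 840 counts in WT replicates 1 to 4, with WT replicate 1 the highest. Without the 12 members with the most counts the WT values were 473, 408, 520 and 567, so that WT replicate 1 was no longer at the top. Each WT library detected 129 to 144 of the 172, and each cKO library 54 to 63 of the 75. More than 50% of a gene's counts fell in a single library for 20 of 75 (26.7%) and 56 of 172 (32.6%).

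In gene class, too, the directions were close to each other and to the comparison genes. Protein-coding genes made up 22.7% (17 of 75) of the genes at 0 in WT, 23.3% (40 of 172) of those at 0 in cKO, 25.2% of the comparison genes and 55.9% of all genes with a symbol. Pseudogenes made up 30.7% (23) and 23.3% (40), against 23.9% of the comparison genes and 14.0% of all. Long noncoding RNAs made up 21.3% (16) and 22.7% (39), against 25.2% and 15.9%. Genes of GENCODE's TEC class, which await experimental evidence, made up 10.7% (8) and 15.7% (27), against 14.2% and 6.89%. Small and structural RNAs made up 14.7% (11) and 14.5% (25), against 11.2% and 7.10%, and 1 T cell receptor segment, Trav9d-4, was at 0 in cKO. Provisional names such as Gm, Rik and clone names were carried by 73.3% (55) and 75.6% (130) of members, 72.7% of the comparison genes and 41.9% of all genes with a symbol.

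**Figure D3:**
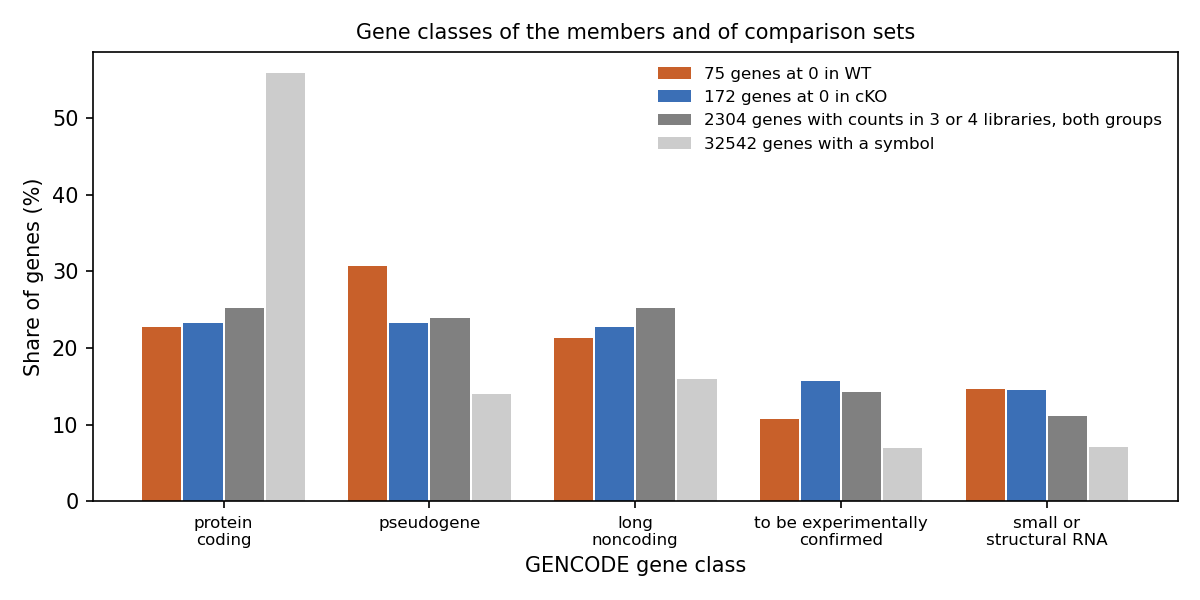
Share of genes (vertical axis, percent) in each GENCODE class (horizontal axis) for the 75 members at 0 in WT, the 172 at 0 in cKO, the 2304 comparison genes of like detection and the 32542 genes with a symbol. Both sets of members lie near the comparison genes, with protein-coding shares of 22.7%, 23.3% and 25.2%, and away from the 55.9% of all genes with a symbol.

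Members had short summed exon lengths, mostly in a single block. The median of the exon bases summed per gene was 917 for genes at 0 in WT and 969 for genes at 0 in cKO. It was 1067 for the comparison genes and 2388 for all genes with a symbol. The median number of exon blocks was 1 in both directions, 2 for the comparison genes and 4 over all genes with a symbol. Counts per gene varied with class. Protein-coding members had medians of 17 and 15.5 counts, TEC genes 16 and 16, long noncoding genes 13.5 and 15, pseudogenes 8 and 9, and small or structural RNAs 4 and 4.

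A transcript of another gene at 95% identity or more over at least 80% of the length existed for 13.3% (10) of the genes at 0 in WT, 21.5% (37) of those at 0 in cKO and 15.6% of the comparison genes. Reads of such genes could be assigned to either copy, so their values are uncertain. Gm2308, a pseudogene at 0 in cKO, is 96.7% and 97.4% identical to Gm2546 and Gm4575, both at 0 in WT. Near-copies of Gm2308 in the table summed to 7146 to 9317 counts in WT and 8752 to 10570 in cKO. Gm44845, at 0 in cKO, is 95.8% identical to a part of the transcript of Olfr552, at 0 in WT.

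The genes at 0 in WT with many counts included the transcription factors Tbx5, Pou4f2 and Barx1. Tbx5, a T-box factor of heart and forelimb, had 0, 11, 15 and 61 counts in cKO replicates 1 to 4. Pou4f2, a POU-domain factor of retinal ganglion cells, had 0, 23, 22 and 19. Barx1, a homeobox factor of stomach and tooth mesenchyme, had 0, 19, 11 and 21. These 3 genes had no counts in cKO replicate 1 and counts in each of the other cKO libraries. Against a floor of 3 counts over the WT group, the mean level in cKO was 29.7-fold higher for Tbx5, 22.6-fold for Pou4f2 and 17.7-fold for Barx1. These ratios leave out the spread between cKO libraries, and the genes were chosen for being at 0 in WT. The floor takes each count as an independent read. Over protein-coding genes, values of 3 (2245) outnumbered values of 1 (631) and 2 (979), so the floor may be too low and the ratios too high. For Tbx5 the ratio was 12.7-fold without cKO replicate 4, which held 61 of its 87 counts. Of 14 T-box genes listed only Tbx5 was a member, and Barx1 was among the members from 76 homeobox genes outside the Hox clusters.

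The promoters of members were compared in RefSeq's table for GRCm38.p6, which spans 250 bases before to 50 after each start and matched 14 genes at 0 in WT and 40 at 0 in cKO. The sequences below are of the 2 protein-coding genes with the most counts in each direction among those matched. CG content played no part in this choice. The sequences are written 5′ to 3′ on the gene's strand, with each CG dinucleotide in capitals. Pou4f2 lies at chr8:78436598-78436897 on the minus strand, Barx1 at chr13:48662786-48663085 on the plus strand, Mettl7a2 at chr15:100352950-100353249 on the plus strand and Ugt1a10 at chr1:88055161-88055460 on the plus strand.
Pou4f2, at 0 in WT: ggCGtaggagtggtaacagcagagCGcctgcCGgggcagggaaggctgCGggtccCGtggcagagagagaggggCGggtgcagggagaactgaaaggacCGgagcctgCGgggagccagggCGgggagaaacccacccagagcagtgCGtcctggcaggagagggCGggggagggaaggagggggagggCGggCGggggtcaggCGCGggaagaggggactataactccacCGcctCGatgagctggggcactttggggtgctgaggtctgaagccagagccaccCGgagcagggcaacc
Barx1, at 0 in WT: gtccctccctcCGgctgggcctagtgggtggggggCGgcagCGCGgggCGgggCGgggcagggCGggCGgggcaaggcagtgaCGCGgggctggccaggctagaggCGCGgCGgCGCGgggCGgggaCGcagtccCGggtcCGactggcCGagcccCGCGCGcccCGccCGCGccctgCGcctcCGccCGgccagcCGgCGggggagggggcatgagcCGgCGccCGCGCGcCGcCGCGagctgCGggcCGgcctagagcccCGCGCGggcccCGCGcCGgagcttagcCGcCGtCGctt
Mettl7a2, at 0 in cKO: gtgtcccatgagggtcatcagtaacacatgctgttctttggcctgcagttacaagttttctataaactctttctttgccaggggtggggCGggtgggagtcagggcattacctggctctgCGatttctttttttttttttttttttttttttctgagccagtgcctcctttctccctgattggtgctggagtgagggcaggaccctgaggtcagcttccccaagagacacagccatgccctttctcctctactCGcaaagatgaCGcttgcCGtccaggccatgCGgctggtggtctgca
Ugt1a10, at 0 in cKO: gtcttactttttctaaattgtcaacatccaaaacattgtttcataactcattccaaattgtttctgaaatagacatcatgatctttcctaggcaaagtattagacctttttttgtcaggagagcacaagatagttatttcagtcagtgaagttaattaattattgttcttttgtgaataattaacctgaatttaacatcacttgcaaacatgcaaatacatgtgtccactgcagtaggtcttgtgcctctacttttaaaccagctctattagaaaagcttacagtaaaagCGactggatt

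Barx1 had 50 CG dinucleotides in these 300 bases, Pou4f2 18, Mettl7a2 6 and Ugt1a10 1. The median was 7.5 over the 14 genes at 0 in WT, 3.5 over the 40 at 0 in cKO and 7 over all 27025 promoters. At least 15 CG dinucleotides were present in 21.4% (3 of 14), 12.5% (5 of 40) and 35.2% of all. The letters TATAAA, on either strand, were present in 14.3%, 12.5% and 14.2%, and among the 4 sequences shown only in that of Mettl7a2. These are descriptions of letters in the window.

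Of the other members at 0 in WT, Gm20458, a predicted protein-coding gene, had 1, 20, 32 and 9 counts in cKO. Its sum of 62 counts was above the 51 of Barx1. It shares exon sequence on the same strand with Dbndd2, which had 5495 to 6839 counts in WT and 4359 to 6411 in cKO, and with Sys1, so its own counts are uncertain. Bpifb4, a secreted protein of the BPI fold family, had 5, 3, 5 and 9, and Map7d3, a microtubule-binding protein, had 0, 9, 5 and 8. Wbp2nl, a sperm head protein, had 0, 6, 5 and 9. Gm42516 had 7, 16, 5 and 0 counts, Gm43484 3, 20, 3 and 0, Gm12501 15, 0, 7 and 3, and Gm15614 5, 7, 3 and 7. The remaining protein-coding genes at 0 in WT had 8 to 17 counts each. They included Lilrb4a, an inhibitory receptor of myeloid cells (10, 0, 3 and 4), Slc34a2, a phosphate transporter of lung and gut epithelium (10, 3, 3 and 0), and the T cell kinase Txk (0, 3, 2 and 3).

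**Figure D4:**
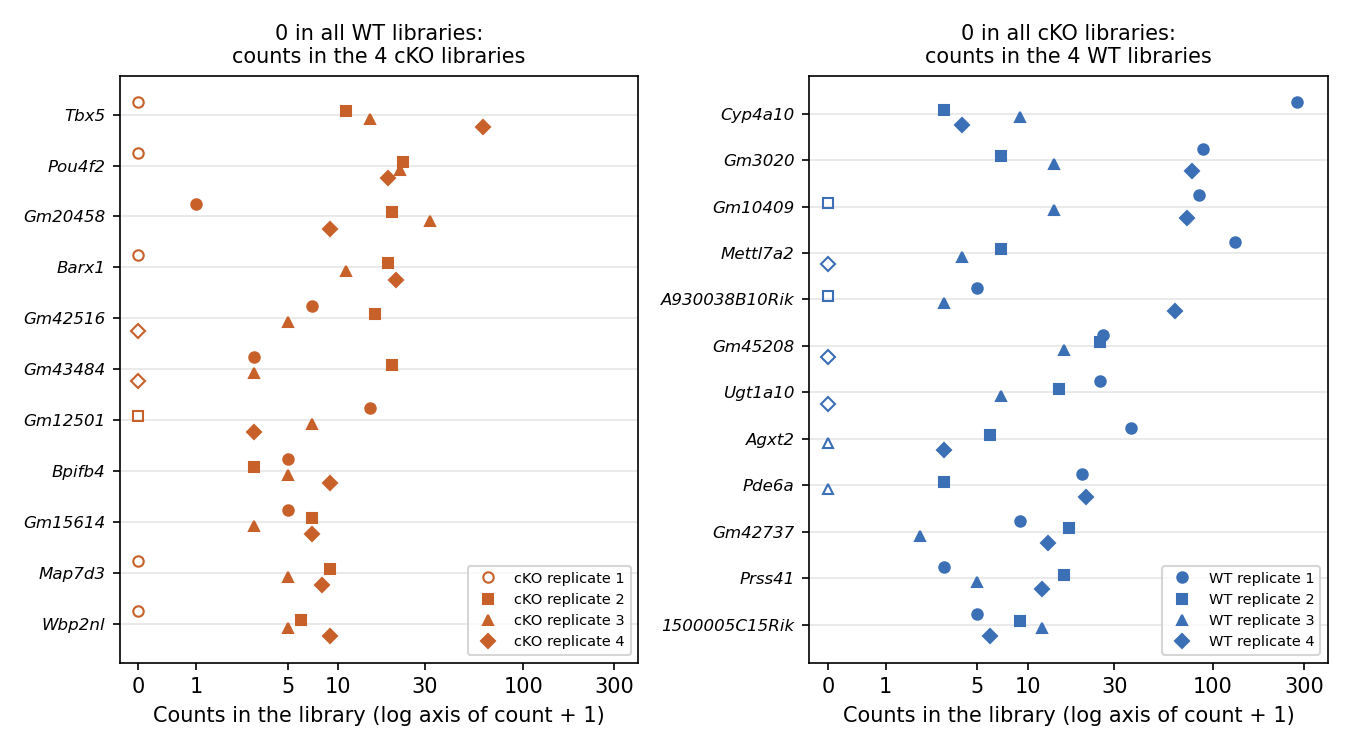
Counts per library (horizontal log axis of count + 1) of members with the most counts in each direction (rows, 11 left and 12 right): left, genes at 0 in WT shown over the cKO libraries, and right, genes at 0 in cKO shown over the WT libraries. Symbols mark replicates and open symbols a count of 0; Tbx5, Pou4f2 and Barx1 are at 0 in cKO replicate 1, and Cyp4a10 and Mettl7a2 are far higher in WT replicate 1 (275 and 131 counts) than in the other WT libraries.

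Cyp4a10 had the most counts of the genes at 0 in cKO, and it and 15 others had over 50% of their counts in WT replicate 1. Cyp4a10, a fatty acid hydroxylase of liver and kidney, had 275, 3, 9 and 4 counts in WT replicates 1 to 4. Mettl7a2, of a family of methyltransferase-like proteins, had 131, 7, 4 and 0. Agxt2, a mitochondrial aminotransferase abundant in kidney, had 37, 6, 0 and 3. Ugt1a10, a glucuronosyltransferase, had 25, 15, 7 and 0. Slc51b, a subunit of a bile acid and steroid transporter, had 8, 4, 0 and 2, and Tmem213, a transmembrane protein, had 8, 2, 0 and 3. These 6 genes are among the 16, which had 586 counts together in WT replicate 1. In WT replicates 2 to 4, 9, 18 and 13 members at 0 in cKO had over 50% of their counts in that library.

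All 20 genes of the kidney list had counts in WT replicate 1, and 19 were highest there. Kap, an androgen-regulated kidney protein, had 9107 counts in WT replicate 1, 442 in cKO replicate 4 and 67 to 97 in the other libraries. In the other WT libraries the list was near its level in cKO replicates 1 to 3, and Serpina1f was at 0 in all 3 of them. The kidney list summed to 1014 normalized counts in cKO replicate 4. Cyp4a10, Mettl7a2, Agxt2 and Ugt1a10 were at 0 there by the rule, so nothing is read from their 0. Leaving out WT replicate 1 and requiring counts in the other 3 WT libraries left 68 genes at 0 in cKO; Cyp4a10 met that condition and Mettl7a2, Agxt2 and Ugt1a10 did not. The part of kidney transcripts in the number of genes at 0 in cKO was not tested.

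**Figure D5:**
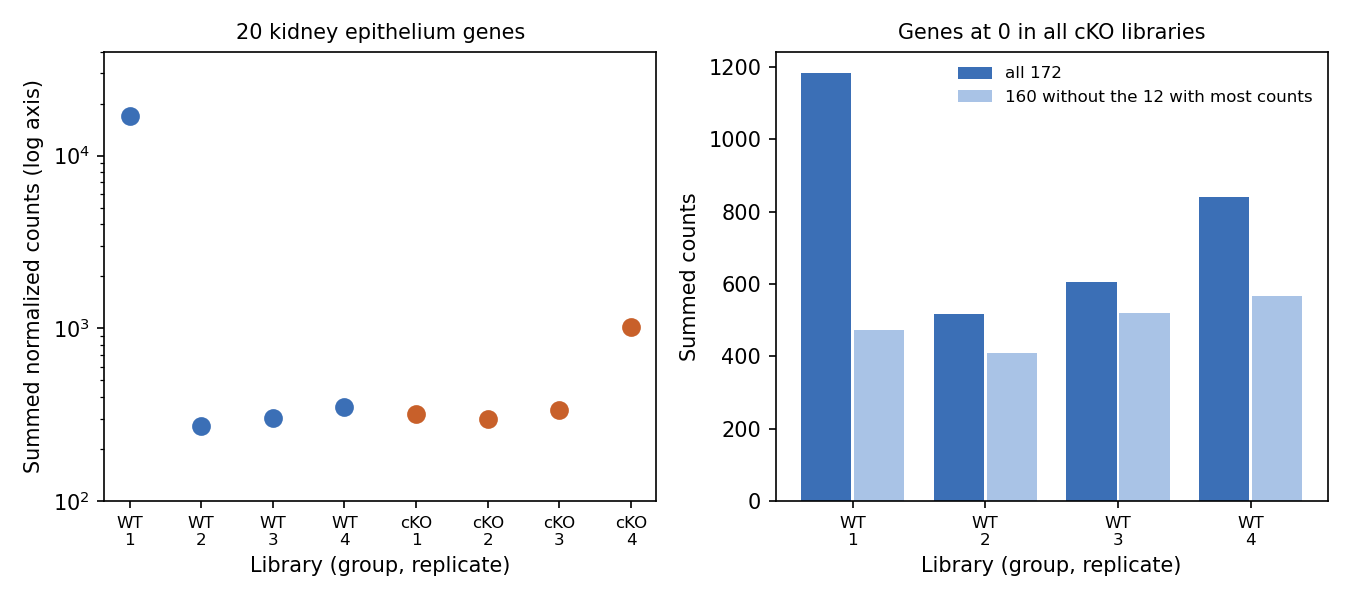
Left, summed normalized counts (vertical log axis) of 20 kidney epithelium genes in each library. Right, summed counts in each WT library of the 172 genes at 0 in cKO, with all of them and without the 12 with the most counts; WT replicate 1 is highest in the kidney list (17016) and in the full sum (1183), and not in the reduced sum (473).

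Several leading genes at 0 in cKO have copies or overlap other genes. Gm3020 and Gm10409, predicted protein-coding genes with identical transcripts over 1933 bases and 2 other genes of the table between them, had 89, 7, 14 and 78 counts, and 85, 0, 14 and 73, in WT. WT replicates 1 and 4 were high and replicates 2 and 3 low for both genes. Gm3020 has 36 near-identical transcripts of other genes. The 33 of them in the table, Gm10409 among them, summed to 1619, 1393, 1559 and 1938 counts in WT and to 1094, 1373, 1074 and 1117 in cKO. The family as annotated was thus read in every cKO library, while Gm3020 itself was at 0 there. The highest cKO sum (1373) lay just below the lowest WT sum (1393). These sums include Gm10409, at 0 in cKO by the rule, so nothing is read from that difference. Gm45208, at 26, 25, 16 and 0 counts, shares exons with Praf2 and Wdr45, which had 1115 to 2647 and 785 to 1207 counts in WT. Mettl7a2 is near-identical to Mettl7a1, which had 931 to 1194 counts in WT and 1048 to 1243 in cKO. Ugt1a10 shares its last exons with the other Ugt1a genes, of which Ugt1a6a had 94 to 157 counts in WT and 27 to 114 in cKO.

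Other members at 0 in cKO had counts in all 4 WT libraries. The long noncoding 9330185C12Rik had 3, 10, 6 and 12 counts, and 1500005C15Rik, a TEC gene within the span of Alpk1, had 5, 9, 12 and 6. Gm42737, within Atp8a1, had 9, 17, 2 and 13. Prss41, a serine protease of testis, had 3, 16, 5 and 12. In contrast, Pde6a, the catalytic alpha subunit of the rod photoreceptor phosphodiesterase, had 20, 3, 0 and 21, and the long noncoding A930038B10Rik had 5, 0, 3 and 63, nearly all in WT replicate 4. Against a floor of 3 counts over the cKO group, the mean WT level was 97.6-fold higher for Cyp4a10, 58.4-fold for Gm3020 and 9.47-fold for 9330185C12Rik. These ratios leave out the spread between WT libraries, and they too may be too high, since the floor takes each count as an independent read. Without WT replicate 1, the library with kidney transcripts, the ratios were 6.43-fold for Cyp4a10 and 37.8-fold for Gm3020.

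Receptor and immune gene families held few members each, to be read against the 0.759% of all genes with a symbol that were members. Of 235 olfactory receptor genes listed, Olfr323 (1, 6, 5 and 5 counts) and Olfr552 (9, 3, 0 and 3) were at 0 in WT and Olfr99 (0, 1, 7 and 1) at 0 in cKO, or 1.28%. Of 12 taste receptors, the bitter receptors Tas2r108 (3, 7, 5 and 5) and Tas2r110 (3, 2, 0 and 3) were at 0 in cKO, and the 12 genes together had 142, 181, 173 and 155 counts in WT and 80, 109, 113 and 173 in cKO, which overlap. Both make up 16.7% of that short list. Of 71 vomeronasal receptor genes, Vmn2r78 and the pseudogene Vmn2r-ps54 were at 0 in cKO, or 2.82%. Of 116 interleukin and chemokine genes and receptors, Il22ra1, the epithelial receptor chain for interleukin 22, was at 0 in cKO (3, 3, 0 and 5). No member came from 14 defensins, 43 C-type lectin and Klr genes, 39 serpins or 71 orphan G protein-coupled receptors. Other single members at 0 in cKO were Camp, the cathelicidin antimicrobial peptide (7, 2, 3 and 2), Nr5a1, the steroidogenic nuclear receptor (5, 6, 3 and 0), and Krt75, a hair follicle keratin (3, 3, 8 and 0).

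Genes just outside the rule could hold more counts than most members. With counts in exactly 2 libraries there were 307 genes at 0 in WT and 522 at 0 in cKO. Gm45062 had 327 and 461 counts in cKO replicates 1 and 3 and none elsewhere, Il11ra2 a sum of 159 in cKO replicates 2 and 4, and the cardiac homeobox gene Nkx2-5 27 and 33 in cKO replicates 3 and 4. On the other side, the pseudogene Usf2-ps1 had 113 and 151 counts in WT replicates 1 and 3, and Aadac, a deacetylase of liver and gut, 74 and 3 in WT replicates 1 and 2. A single count in the group otherwise at 0 kept out 32 genes on the WT side and 78 on the cKO side, such as Gm21846 with 3, 9, 8 and 7 counts in WT and 1 in cKO replicate 1.

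Some members lay close together in the genome. In all, 9 pairs had at most 2 other genes of the table between them, and 7 of these pairs were at 0 in cKO for both genes. Of the 247 members 172 were at 0 in cKO, and the number of pairs under random placement was not computed. In the pair of Zar1, an oocyte factor, and Txk, Zar1 was at 0 in cKO and Txk at 0 in WT.

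The rule used the contrast of cKO against WT, so its tests are given for the members without being read as support. In the authors' deposited table, 120 genes (0.352%) were higher in cKO at an FDR under 0.05, and 0.305% of genes were lower. Among the members, the authors' deposited table lists 2 genes at 0 in WT at that level, Gm20458 (FDR 0.00203) and Barx1 (FDR 0.0139). It lists 7 at 0 in cKO, from Gm3020 (FDR 0.000615) to Cyp4a10 (FDR 0.0492). By limma, 5 of 26135 genes (0.0191%) passed an adjusted p of 0.05, 2 higher (0.00765%) and 3 lower (0.0115%) in cKO. The filter on low values kept 8 members at 0 in WT and 19 at 0 in cKO, with 0 called by limma in either direction. At an unadjusted p under 0.05, limma counted all 8 and all 19 of those members and 2266 of all genes tested, and limma-voom called 0 members. The lowest adjusted p of a member was that of Gm3020 (limma adjusted p = 0.165, log2 fold change -4.87, SE 0.79, at 0 in 4 of 4 cKO libraries). Leaving out WT replicate 2 gave the lowest member value of all settings (0.0697).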

How the data were processed

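RNA-seq was made from CA1 tissue with Trizol extraction and a stranded mRNA kit, per the labels' protocols. STAR, StringTie, DESeq2 and genome build mm9 are named, with no roles or versions, in the submitters' processing notes. No source at hand gives the annotation or the strand setting of the counting. The authors deposited log2 values for 34094 genes in 8 libraries, and each equals log2(count / size factor + 1). Undoing this gave whole counts for 100% of 272752 values (tolerance 0.001 counts). Among them odd counts were over-represented (7523 values of 2, 9216 of 3 and 4266 of 4), so they are called counts and not reads. The authors also deposited a p-value and an FDR per gene, copied here. The authors' 2 group mean columns were left out.

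The members and gene lists were chosen with earlier results of these data known. Named genes are, per direction, the 12 members with the most counts, members at the authors' FDR under 0.05 or past limma, microRNA genes, up to 4 members of each gene family list, and the 3 genes with the most counts just outside each threshold. Other genes were named after their values were seen. A gene that this rule names is not reported here. Gene classes, exon lengths, overlaps and neighbours came from GENCODE M21, which matched 34009 genes and all 247 members. It is of a later build than mm9, so no coordinates were taken from it. Near-identical transcripts were found with blastn 2.17.0 among the longest transcripts. Sequences are RefSeq's for GRCm38.p6.

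Detection at equal depth is the expected number of genes with a count after thinning to the smallest library, compared by an exact, two-sided permutation of the libraries. A count test planned for raw counts was replaced by limma 3.58.1 in R 4.3.3 (trend, robust, pseudocount 1, normalized value of at least 1 in 4 libraries), since the deposited values are log2. Adjusted p is Benjamini-Hochberg. Scripts for thinning and limma were tested on simulated data. No pairing by replicate number was seen, and the main tests treated the libraries as unpaired. Intervals and floors of 3 counts cover counting error only and take each count as an independent read.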

Additional observations from a re-analysis of the deposited data

Results flagged for a closer look

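In groups of 4 libraries a value was singled out where its gap to the nearest other library took up nearly the whole range. Of 84 groups examined, 17 met this. Chance gives about 1 in 20 for groups not chosen by their values, a rate that does not apply to members or to the kidney list, which were. Among the genes at 0 in cKO, WT replicate 1 stood alone for Cyp4a10 (275 counts, next 9), Mettl7a2 (131, next 7) and Agxt2 (37, next 6). WT replicate 4 stood alone for A930038B10Rik (63, next 5) and WT replicate 3 for Olfr99 (7, next 1). Among the genes at 0 in WT, cKO replicate 2 stood alone for Gm43484 (20, next 3).

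For 7 microRNA genes the single library apart was the one at 0 counts, with 1 count in each of the other 3: Mir6338, Mir7074 and Mirlet7e in cKO, and Mir1193, Mir1199, Mir6980 and Mirlet7c-1 in WT. At 1 count per library this follows from the rule itself.

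The 20 kidney epithelium genes summed to 17016 normalized counts in WT replicate 1 (next 350) and to 1014 in cKO replicate 4 (next 335). The 4 Y-linked genes reached 63.5 normalized counts in WT replicate 1 (next 0.864). Xist reached 71044 in WT replicate 4 (next 62706), and all 4 cKO libraries, at 40726 to 55721, lay below every WT library.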

How the results depend on the processing

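The number of members follows the thresholds of the rule. For genes at 0 in WT it was 382 with counts in at least 2 libraries, 8 with counts in all 4 and 44 with at least 10 counts, against 75. For genes at 0 in cKO it was 694, 26 and 109, against 172. Leaving out libraries gave 20 to 151 genes at 0 in WT and 54 to 327 at 0 in cKO. By construction, leaving out a library of the group at 0 relaxes the rule and leaving out one of the other group tightens it to 3 of 3. Leaving out WT replicates 1 to 4 gave 132, 117, 137 and 151 genes at 0 in WT and 68, 69, 59 and 54 at 0 in cKO. Leaving out cKO replicates 1 to 4 gave 25, 20, 25 and 29 at 0 in WT and 318, 327, 257 and 291 at 0 in cKO. Allowing up to 1 count in the group at 0 gave 107 and 250.

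The difference in genes detected was -726 with members kept, a setting that rests partly on the rule. It was -638.5 at full depth when a gene needed 3 counts. Both had a two-sided exact permutation p of 0.0286. At full depth from 1 count it was -737.5 (exact permutation p = 0.0571). Over libraries left out it was -473 (without cKO replicate 3, exact permutation p = 0.114) to -801 (without cKO replicate 2, exact permutation p = 0.0286). The highest exact permutation p of these was 0.171, without WT replicate 4. The number was lower in cKO in all settings run. limma called 4 to 7 genes over libraries left out and 2 with the replicate number as a block. Same-numbered libraries correlated at -0.040 to 0.029, and 1 of the 4 WT libraries correlated best with its own number. These values show no pairing by number but cannot exclude it. For the 12 named genes with a limma value, all 158 values over 14 settings stayed above the threshold (limma adjusted p 0.0697 to 0.786). All kept direction, which follows from the rule, since these genes are members. With counts of 3 to 18 for most members, depth limits any comparison of single genes.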
